A study of Mus musculus with 5 samples.

Results

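Sugp2, Urb2, Adar, Rere and Nlrc5 are the 5 mouse genes whose promoter baits had the largest excess of Sertoli over pre-granulosa contacts in 1 of 2 deposited tables of promoter contacts, that with the original baits. They are 5 of 9200 gene symbols named in the 2 tables, and they were chosen by that excess. It is therefore described here and not tested. The contacts come from capture Hi-C. In this method crosslinked chromatin is digested, here with DpnII, pieces held near each other are joined, and joined molecules that contain a chosen piece, the bait, are pulled out and sequenced. Sertoli cells, the supporting cells of the testis, were sorted from E13.5 gonads of Sox9IRES-GFP embryos, which carry a GFP reporter at Sox9, in 3 libraries. Pre-granulosa cells, their counterpart in the ovary, came from E13.5 gonads of Enh8-mCherry embryos, sorted by the mCherry reporter, in 2 libraries. Each library was made from about 100000 cells, and neither the number of embryos nor any pooling is given in the sources used here.

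Each table row pairs a bait with a bin of about 5 kb and gives 1 CHiCAGO score per cell type. CHiCAGO models how many read pairs chance would give at each distance, and a higher score means that the observed number was less likely under that model. A contact was called at a score of at least 5, and every listed row reached 5 in at least 1 cell type. All libraries of a cell type stand behind 1 column, so no value has a replicate error and no p-value can be given. Cell type, reporter line and number of libraries cannot be told apart. The depth is unknown. Contact scores do not show expression, so they cannot check the sort. Of 10 Sertoli markers only Ptgds, and of 9 pre-granulosa markers only Lef1, had a bait listed in the first table. A bait without a called contact is not listed, so a gene missing there may still have been captured. Counts and shares of baits below cover listed baits only.

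The table with the original baits, single restriction fragments with a median length of 758 bp, holds 29421 cis rows of 7915 baits. In the table with the extended baits the bait is itself a bin, with a median length of 5324 bp, and there are 51524 cis rows of 11452 baits. The 5 genes took part in 171 cis rows of the first table, through 11 baits, and in 160 cis rows of the second, through 12 baits. Neither table listed a trans contact of these genes. Bait names carry a transcript number (Sugp2-202), and coordinates are mm10, set beside RefSeq gene positions of GRCm38.p6, which is the same assembly.

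Promoters meet distant DNA through chromatin loops, and much of the looping in mammalian cells is set by cohesin and by CTCF, a zinc finger protein that halts loop growth. Contacts of a promoter that differ between cell types often involve enhancers, while others reflect the folding of the whole domain. The 5 genes have no common pathway. Sugp2 encodes a protein with SURP and G-patch domains, which are found in splicing factors. Urb2 encodes a nucleolar protein of large ribosomal subunit assembly, and Adar encodes a deaminase that turns adenosine into inosine in double-stranded RNA and has a constitutive and an interferon-inducible promoter. Rere encodes an atrophin family corepressor that also takes part in retinoic acid signalling, and Nlrc5 encodes a NOD-like receptor protein that activates MHC class I genes.

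The sequences before the annotated starts are shown because the baits are named as promoters, and only part of them hold such a start. RefSeq had an upstream sequence for 4 of the 5 genes, in 6 entries. Capitals mark CCCTC, the core of the motif bound by CTCF, and GGGCGG, bound by Sp1, each on either strand and counted where overlapping. All are on the plus strand of GRCm38.p6. The line for Adar-201 is chr3:89730468-89730717, that for Adar-202 is chr3:89714772-89715021, and that for Rere is chr4:150281666-150281915. The line for Sugp2 is chr8:70233955-70234204. The line for Urb2 is chr8:124021398-124021496, the 99 bases between its start and that of the divergent gene Taf5l, a subunit gene of the SAGA-type histone acetyltransferase complexes.
Adar-201: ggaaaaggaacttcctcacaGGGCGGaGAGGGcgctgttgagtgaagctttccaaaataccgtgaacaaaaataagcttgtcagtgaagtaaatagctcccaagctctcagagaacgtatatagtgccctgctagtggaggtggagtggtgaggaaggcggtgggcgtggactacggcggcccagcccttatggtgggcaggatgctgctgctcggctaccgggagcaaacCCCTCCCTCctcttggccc
Adar-202: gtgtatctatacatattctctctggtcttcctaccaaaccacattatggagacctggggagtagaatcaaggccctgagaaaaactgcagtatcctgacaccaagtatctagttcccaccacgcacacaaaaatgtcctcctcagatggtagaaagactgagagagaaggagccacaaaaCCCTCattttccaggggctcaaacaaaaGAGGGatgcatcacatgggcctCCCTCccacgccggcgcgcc
Rere: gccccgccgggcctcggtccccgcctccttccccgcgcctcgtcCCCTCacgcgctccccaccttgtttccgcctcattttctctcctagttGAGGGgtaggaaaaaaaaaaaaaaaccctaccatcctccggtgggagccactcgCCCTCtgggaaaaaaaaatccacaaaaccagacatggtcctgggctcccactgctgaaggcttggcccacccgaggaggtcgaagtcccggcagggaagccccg
Sugp2: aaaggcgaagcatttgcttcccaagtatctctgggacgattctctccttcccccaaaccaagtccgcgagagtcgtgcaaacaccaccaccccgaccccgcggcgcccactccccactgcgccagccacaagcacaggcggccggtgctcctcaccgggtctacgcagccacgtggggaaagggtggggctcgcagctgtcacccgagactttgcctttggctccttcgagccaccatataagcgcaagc
Urb2: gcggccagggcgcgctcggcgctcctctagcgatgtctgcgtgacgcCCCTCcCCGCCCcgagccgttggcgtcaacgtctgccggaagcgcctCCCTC

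Over 250 bases, the Adar-201 entry held 3 matches to CCCTC and 1 to GGGCGG, and the Urb2 entry held 2 of each. The Rere entry and the first Adar-202 entry held 3 CCCTC matches each, a further Adar-202 entry held 1, and the Sugp2 entry held none of either motif. Among 32851 mouse promoters, 60.5% held CCCTC and 32.7% held GGGCGG in the same window. GATC, where DpnII cuts, was in 0 of the 6 entries and in 41.9% of all promoters. The 6 entries also had 0 matches to the motif ACAAAG of SOX factors, in 16.5% of all promoters, and to its variant ACAATG, in 10.7%. There were 0 matches to AGATAA, bound by GATA factors and found in 9.99% of all promoters, and 0 to the interferon response motif, found in 2.98%. CCAAT (NFY) had 1 match, in the further Adar-202 entry, against 33.8% of all promoters. GC content ran from 50% at the first Adar-202 entry to 76% at Urb2. Only that Adar-202 entry lay under the median of 52.4% over all promoters.

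Of the 5 baits with the excess, only Adar-201 (chr3:89729411-89731116) held an annotated transcript start, at position 89730718. The Urb2-201 fragment (chr8:124023043-124023629) lay 1546 bp past the Urb2 start, inside the gene. Sugp2-202 (chr8:70256723-70257570) lay 22.5 kb past the annotated start and 5.54 kb before the end of the gene. Rere-201 (chr4:150487731-150488515) lay 205.8 kb past the annotated start, within a gene of 340.5 kb. Nlrc5-202 (chr8:94524586-94525434) lay 90.3 kb from the lower end of the gene and 1.84 kb before its other end, and no start of Nlrc5 was matched. Over all original baits with an annotated start of their gene, 3631 of 6570 held it (55.3%, 95% Wilson interval 54.1 to 56.5%), so a bait away from the RefSeq start is common in this table.

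Sugp2-202 had 33 listed contacts, all called in Sertoli cells, and 4 were called in pre-granulosa cells. Urb2-201 had 27 Sertoli calls and 4 pre-granulosa calls among 28 listed contacts, Adar-201 had 29 and 7 among 30, Rere-201 had 30 and 9 among 31, and Nlrc5-202 had 21 and 1 among 21. Together, Sertoli calls made up 140 of the 143 listed contacts and pre-granulosa calls 25, where the table as a whole had 79.5% and 42% called. Only 3 contacts were called in pre-granulosa cells alone (20.5% of all rows), 22 were called in both cell types (21.5%) and 118 in Sertoli cells alone (58%). More Sertoli than pre-granulosa calls were the rule in this table, at 63.8% of baits, and 23.6% had fewer. These counts follow from how the baits were chosen. The excess at Nlrc5-202, the lowest of the 5, was 20 calls, and the next baits in order were Gabpb2-204, Sez6l2-201, Ankrd11-205 and Dst-208 with 19 each and Nkpd1-201 with 18.

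The score distributions behind these counts were not alike. The median Sertoli score lay between 6.86 at Sugp2 and 7.49 at Urb2, while the median pre-granulosa score ran from 1.09 at Sugp2 over 1.65 at Nlrc5 and 2.20 at Urb2 to 2.67 at Adar and 2.72 at Rere. The Sertoli score was the higher in 138 of 143 contacts. This share was 71.6% over all rows and 80.2% for the other baits with 20 or more listed contacts. At Sugp2-202 and Nlrc5-202 the Sertoli score was the higher in every listed contact. Among the 118 Sertoli-only calls, 21 (17.8%) were listed at 0 in pre-granulosa cells, against 7.18% of all Sertoli-only calls, and 43 (36.4%) were under 1, against 23.1%. Another 23 (19.5%) scored between 3 and 5, against 33.9%. For the other baits with 20 or more listed contacts these 3 shares were 6.11%, 18.8% and 39.7%. All these values come from the scores by which the 5 baits were chosen, so nothing is read from the differences. Whether a score of 0 is a measured value or a missing one is not given in the sources used here. With other baits, 11 of those 21 bins were also listed, in 19 rows, and 0 of these rows were at 0. Of the 21, 7 were matched in the extended table, and 4 of these were at 0 there as well.

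**Figure D1:**
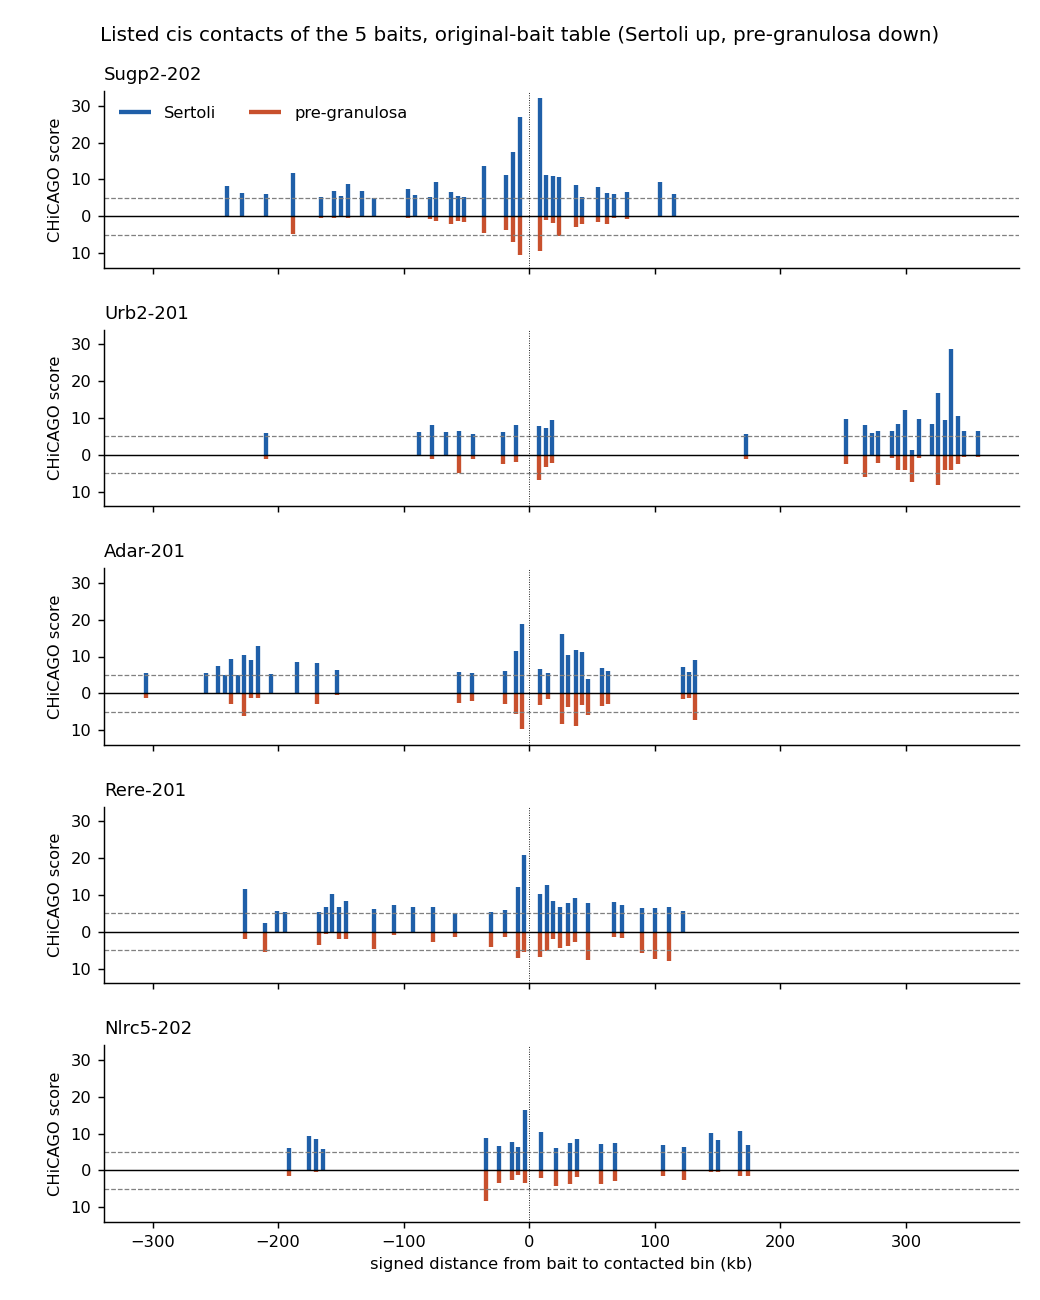
Scores of every listed cis contact of the 5 baits in the original-bait table, by signed distance of the contacted bin from the bait in kb, with Sertoli scores drawn upward, pre-granulosa scores drawn downward and dashed lines at the calling score of 5. Sugp2-202 shows 33 Sertoli calls on both sides of the bait, whereas Urb2-201 has its strongest Sertoli score, 28.6, at 336.2 kb.

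At Sugp2-202 the strongest contacts were the bins beside the bait, within and just past the gene. The bin 8.49 kb to the higher side scored 32.2 in Sertoli and 9.42 in pre-granulosa cells, and the bin 7.25 kb to the lower side scored 27.0 and 10.5. All 4 pre-granulosa calls of this bait lay within 23.4 kb, and all were called in Sertoli cells too. Sertoli calls went on through a dense stretch of genes on both sides, over 18 genes other than Sugp2. On the lower side they covered Slc25a42, Tmem161a, Mef2b, a gene for a MADS-box transcription factor, and Ncan, which encodes the matrix proteoglycan neurocan. A run of 3 touching bins over Ncan, 144.1 to 155.2 kb away, scored from 5.48 to 8.86 in Sertoli and from 0 to 0.57 in pre-granulosa cells. A bin over Sugp1, a relative of Sugp2, at 188.1 kb, scored 11.8 and 4.96, just under the calling score in pre-granulosa cells. The farthest call, over Mau2, a cohesin loading factor gene, was at 240.7 kb with 8.23 and 0.12. On the higher side the calls passed Homer3, Cope, Cers1 and Upf1, the gene of the nonsense-mediated decay helicase, and ended at Comp, a cartilage matrix gene, at 115.5 kb with 6.01 and 0.

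At Urb2-201 the highest Sertoli scores lay far from the bait, while other far calls scored less than the bin at 18.4 kb, with 9.34. Of 27 Sertoli calls, 16 lay at 200 kb or more, and the median distance was 267.6 kb. Most were over Galnt2, which encodes an enzyme that starts O-linked glycans, and in the gap between it and Pgbd5, a gene derived from a piggyBac transposase. A run of 6 touching bins (chr8:124341441-124372308, 30.9 kb) lay 320.6 to 346.4 kb from the bait. It scored from 6.51 to 28.6 in Sertoli and from 0 to 8.09 in pre-granulosa cells, with 1 pre-granulosa call. Its highest Sertoli bin, at 336.2 kb, scored 28.6 against 4.23, while the bin at 325.7 kb scored 16.8 against 8.09 and was called in both. In between the Sertoli calls lay the bait's only pre-granulosa-only contact, at 304.7 kb over Galnt2, with 1.25 in Sertoli and 7.52 in pre-granulosa cells. The bins on either side of it, at 298.9 and 310.4 kb, scored 12.3 and 9.71 in Sertoli and 4.20 and 0.84 in pre-granulosa cells. The pre-granulosa calls thus were not confined to the surroundings of the bait: 3 of 4 lay beyond 200 kb, and their median distance was 286.1 kb.

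Adar-201 had contacts on both sides. The strongest was 5.39 kb away within Adar, at 18.9 in Sertoli and 9.83 in pre-granulosa cells. On the higher side, the bins over Chrnb2, a nicotinic acetylcholine receptor subunit gene, scored 16.0 and 10.5 in Sertoli cells against 8.45 and 3.81. The bin over the start of Ube2q1, a ubiquitin-conjugating enzyme gene, scored 11.3 against 3.05. The next bin in that direction, at 46.9 kb, was called in pre-granulosa cells alone, with 3.995 in Sertoli and 5.90 in pre-granulosa cells. On the lower side, a run of 7 touching bins (chr3:89480050-89516754, 36.7 kb), the longest of the 5 baits, lay 216.0 to 247.5 kb away. This run lay in DNA with no protein-coding RefSeq gene, before Kcnn3, a calcium-activated potassium channel gene. It scored from 5.04 to 12.97 in Sertoli and from 0 to 6.03 in pre-granulosa cells, and 1 of its bins was called in pre-granulosa cells. Sertoli calls went on into Kcnn3, at 8.57 against 0.23 and at 8.31 against 2.88, and the farthest, over Shc1, was at 305.5 kb with 5.58 and 1.18. Of the 29 Sertoli calls, 14 were over no protein-coding gene.

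Rere-201 stayed within its own gene, where 29 of 30 Sertoli calls and 8 of 9 pre-granulosa calls lay. The strongest was the bin 3.85 kb away, with 20.9 in Sertoli and 5.48 in pre-granulosa cells. The longest run, of 6 bins beginning 8.71 kb to the higher side, scored from 6.86 to 12.9 in Sertoli and from 1.84 to 6.85 in pre-granulosa cells. Another run, of 5 bins 146.2 to 167.2 kb to the lower side (chr4:150318042-150344794), scored from 5.27 to 10.4 and from 0 to 3.55, with 0 pre-granulosa calls. Past the lower end of the gene the bin at 226.5 kb, the farthest, scored 11.6 in Sertoli against 1.90, and the bin at 210.4 kb scored 2.36 against 5.48 in the other direction. Towards the other end of Rere the bins did not all go one way. Those at 67.8 and 73.5 kb scored 8.22 and 7.20 in Sertoli and 1.40 and 1.62 in pre-granulosa cells, those at 100.1 and 111.7 kb scored 6.49 and 6.88 against 7.50 and 7.84, and that at 122.6 kb scored 5.70 against 0.

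Nlrc5-202 had 1 pre-granulosa call, at 34.1 kb within Nlrc5, where the scores of 8.69 in Sertoli and 8.41 in pre-granulosa cells were nearly the same. The strongest Sertoli contact, 3.30 kb away, scored 16.5 against 3.41. Calls on the higher side ran over Cpne2, Psme3ip1, Rspry1, Arl2bp and Pllp. The bins over Arl2bp at 145.0 kb and over Pllp at 167.9 kb scored 10.2 and 10.8 in Sertoli against 0.32 and 1.52 in pre-granulosa cells. On the lower side 4 calls lay over Slc12a3, which encodes the thiazide-sensitive sodium chloride cotransporter of the kidney. The farthest of these was at 191.6 kb, with 6.15 and 1.49.

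The labels name score columns of the original-bait table alone. The extended table has the same 2 column names and is taken here to come from the same libraries, so it shows the counts with another bait size and is no independent test. The bait bins with the same names had 20 Sertoli and 3 pre-granulosa calls at Sugp2-202, 21 and 5 at the bin shared by Taf5l-201 and Urb2-201, 19 and 4 at Adar-201, 22 and 8 at Rere-201, and 15 and 1 at Nlrc5-202. The excess was in the same direction at all 5, from 14 to 17 calls. The table as a whole had 78% of its rows called in Sertoli and 56.3% in pre-granulosa cells, with more Sertoli calls at 52.4% of baits. In order of excess these bins were at place 16 for Sugp2, 18 for Urb2, 25 for Adar and 34 for Rere and Nlrc5, where they had been at places 1 to 5 in the table that chose them. Of the 140 Sertoli calls with the original baits, 84 (60%) were listed again with a bin overlapping by at least 50%, all 84 again called in Sertoli cells, and 80 (95.2%) again scored higher there. For the Sertoli calls of all other original baits, matched in the same way, 61.1% were listed again, and of those 96.5% were called in Sertoli cells and 85.2% scored higher there. Of the 118 Sertoli-only calls, 64 (54.2%) were Sertoli-only again, 3 (2.54%) were called in both and the rest were not listed, against 43.1% and 15.3% for the other baits. Of all rows of the extended table, which are not chosen by a Sertoli call, 65% scored higher in Sertoli cells and 43.7% were Sertoli-only. The 5 baits were picked by these calls, so nothing is read from the differences. Of the 25 pre-granulosa calls, 14 (56%) were called again, against 56.5% for the other baits. The extended table has 0 rows under 10 kb, where 7 of the 25 lay. Of the 18 at 10 kb or more, 11 (61.1%) were called again, against 70.4% for the other baits.

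**Figure D2:**
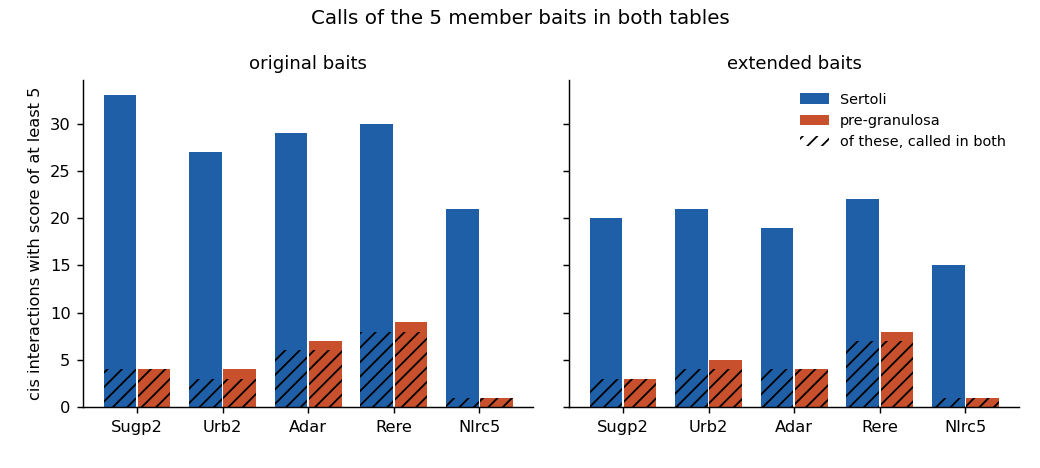
Number of cis contacts called at a score of at least 5 for the bait of each gene, for each cell type, with original baits on the left and extended baits on the right, and hatching for contacts called in both cell types. The Sertoli bar is the taller at every gene in both tables, with 33 against 4 at Sugp2-202 and 20 against 3 in the extended table.

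Several of these contacts were listed again in the extended table. The Urb2 contact in the gap between Galnt2 and Pgbd5 scored 25.7 in Sertoli and 4.80 in pre-granulosa cells, and the pre-granulosa-only bin over Galnt2 scored 0.32 and 6.05. For Sugp2-202 the strongest bin scored 33.9 and 12.9. The bin of Rere at 156.8 kb, which had 10.4 and 0 with the original bait, had 8.68 and 0. The bin past the lower end of Rere had 9.66 and 1.69. At Adar a bin that holds the promoter of Kcnn3 was listed with 12.4 and 7.66, called in both cell types. Other contacts had a higher pre-granulosa score than with the original bait. The Urb2 bin at 310.4 kb went from 9.71 and 0.84 to 8.78 and 4.74, just under the calling score, and that at 325.7 kb from 16.8 and 8.09 to 17.2 and 14.4. At Nlrc5 the bin over Arl2bp at 145.0 kb had 10.2 and 0.32, and an overlapping but not identical bin of the extended table had 11.96 and 4.22.

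The median distance of the Sertoli calls of the 5 baits was 91.8 kb (95% order-statistic interval 66.1 to 123.9 kb), against 42.6 kb over all Sertoli calls of the table and 64.5 kb for the other baits with 20 or more listed contacts. By gene the medians were 267.6 kb for Urb2, 127.2 kb for Adar, 82.9 kb for Rere, 74.0 kb for Sugp2 and 67.9 kb for Nlrc5. At 100 kb or more there were 68 of 140 calls (48.6%), against 25.3% of all Sertoli calls and 31.1% for the other baits with 20 or more. At a score of at least 10 the median was 26.0 kb, below that interval. At a score of at least 7 it was 67.9 kb and with the extended baits 74.8 kb, both within it, the latter against 47.9 kb over all Sertoli calls of that table. Urb2 gave 16 and Adar 10 of the 31 calls at 200 kb or more, and Nlrc5 gave 0. Intervals here cover counting error only, and neighbouring bins share signal, which makes them too narrow.

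**Figure D3:**
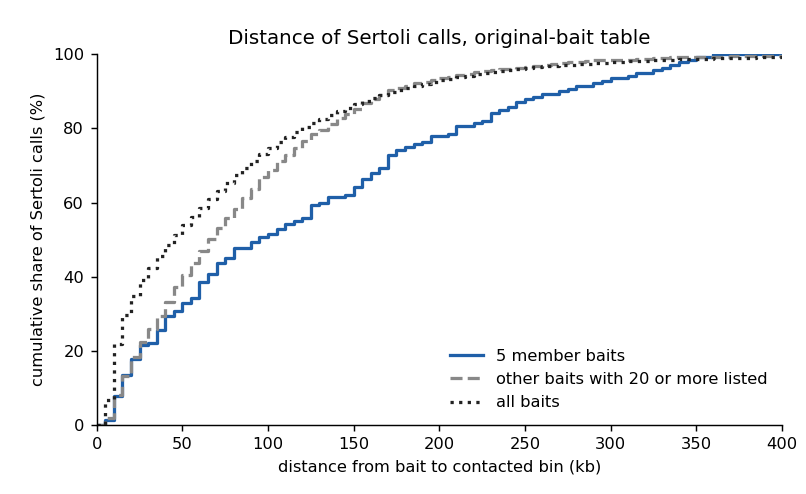
Cumulative share of Sertoli calls in percent by distance from bait to bin in kb, original-bait table, for the 5 baits, for the other baits with 20 or more listed contacts and for all baits. Within 100 kb lay 51.4% of the calls of the 5 baits, 68.9% of those of the other baits with many contacts and 74.7% of all.

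By distance, the balance of the cell types was nearest to even beside the baits. Under 10 kb the 5 baits had 11 Sertoli and 7 pre-granulosa calls, a ratio of 1.57 where all baits together had 1.38. From 10 to 50 kb they had 35 and 9, and from 50 to 100 kb 26 and 1. From 100 to 200 kb there were 37 and 3, and from 200 to 500 kb 31 and 5. Over all baits the ratio rose from 1.75 through 2.25 and 2.67 to 2.71 over the same 4 ranges. With the extended baits the 5 had 36 and 12 calls from 10 to 50 kb, 18 and 2 from 50 to 100 kb, 22 and 2 from 100 to 200 kb, and 21 and 5 beyond. Over all extended baits the ratio in these ranges was 1.22, 1.58, 1.70 and 1.57, so it did not rise throughout.

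Many calls touched each other. Of the 140 Sertoli calls, 83 (59.3%, 95% Wilson interval 51.0 to 67.1%) touched another Sertoli call of the same bait, against 38.7% of all Sertoli calls and 68.9% (66.8 to 71.0%) for the other baits with 20 or more listed contacts. Counted as runs, the 140 calls were 85 separate contacts and the 25 pre-granulosa calls were 21. The longest runs had 7 bins at Adar, 6 at Urb2 and at Rere, 4 at Sugp2 and 3 at Nlrc5. With runs counted once, the excess was 17 at Sugp2, 12 at Urb2, 10 at Adar, 11 at Rere and 14 at Nlrc5.

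Of the 140 Sertoli calls, 32.1% lay over the gene of the bait itself, 49.3% over other protein-coding genes alone and 18.6% over none. Over all Sertoli calls of the table these shares were 30.5%, 42.6% and 26.7%, the first pair over baits whose symbol RefSeq holds. At Sugp2, 24 of 33 Sertoli calls were over other genes alone, and at Nlrc5 15 of 21 and at Urb2 19 of 27 were. At Adar 14 of 29 were over no protein-coding gene, and at Rere 0 calls were over another protein-coding gene. The pre-granulosa calls of Sugp2 and Nlrc5 touched no protein-coding gene other than their own, in 4 and 1 calls. Over other genes alone lay 2 of 4 at Urb2, 2 of 7 at Adar and 0 of 9 at Rere. Among all pre-granulosa calls of baits whose symbol RefSeq holds, this share was 35.6%. An annotated start lay in 8 of the 140 contacted bins (5.71%), against 4.66% over all Sertoli calls: 2 for Sugp2, 3 for Nlrc5 and 1 each for Urb2, Adar and Rere.

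Contacts between 2 promoters can be read from both sides in the extended table, once with each as the bait. Between bins of the 5 genes and baited bins of other genes there were 35 pairs. With the bin of the 5 genes as bait 19 were listed, of which 19 were called in Sertoli and 3 in pre-granulosa cells. With the partner as bait 33 were listed, of which 31 and 11 were called. Among all 24622 other rows between baited bins of different genes, 78.1% were called in Sertoli and 61.2% in pre-granulosa cells, a difference in the direction by which the 5 baits were chosen. Of 17 pairs listed both ways, 14 were Sertoli-only from the side of the 5 genes, and 6 of these 14 were called in both cell types from the partner's side. Counted from either side, 22 rows of these pairs were Sertoli-only with the reverse listed, and 6 of them (27.3%) were called in both in the reverse, against 18.2% of 5276 such rows of other genes. These 6 were the pairs of Adar-201 with Chrnb2-203, of Sugp2-202 with Homer3-201, Homer3-202 and the bin of Cope-202, and of Nlrc5-202 with Fam192a-214 (Psme3ip1 in RefSeq) and Pllp-203. Adar-201 met Chrnb2-203 with 11.3 in Sertoli and 4.64 in pre-granulosa cells, and the reverse was 25.3 and 17.0. Sugp2-202 met Homer3-202, of a synaptic scaffold gene, with 7.35 and 4.45, and the reverse was 19.3 and 11.5. The class of these 6 contacts thus changed with the end that served as bait. The pre-granulosa score was higher with the partner as bait than with the bin of the 5 genes as bait in 13 of the 17 pairs, and so was the Sertoli score in 14. The table gives no reference for these counts, since either end of any other pair may be called the partner.

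The other 8 Sertoli-only pairs were Sertoli-only from the partner's side too. Adar-201 met the bin of Pmvk-204, of a mevalonate pathway kinase gene, 271.3 kb away, with 6.62 and 0 from the Adar side and 8.65 and 0 from the other. Next to it, Pmvk-202 as bait had 1.51 and 7.24 with Adar-201, a pre-granulosa-only call that was not listed from the Adar side. Adar-201 met Kcnn3-201 with 12.4 and 7.66 (reverse 15.4 and 13.3) and Ube2q1-202 with 12.4 and 5.998 (reverse 17.9 and 12.96), called in both cell types each way. Nlrc5-202 met the bin of Arl2bp-201 at 141.8 kb with 11.96 and 4.22, and the reverse was 12.96 and 4.84. Rere-208 met the bin of Park7, a gene linked to familial Parkinson's disease, with 5.71 and 1.06, and the reverse was 7.19 and 1.25. The bin of Taf5l and Urb2 was listed as other end of Abcb10-201, Acta1-201 and Nup133-201, with 9.77, 8.96 and 10.7 in Sertoli and 0 in pre-granulosa cells in all 3, and none of the 3 was listed with it as bait. As a bait the same bin had 5 pre-granulosa calls, so it gave pre-granulosa scores above 0 in that role.

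**Figure D4:**
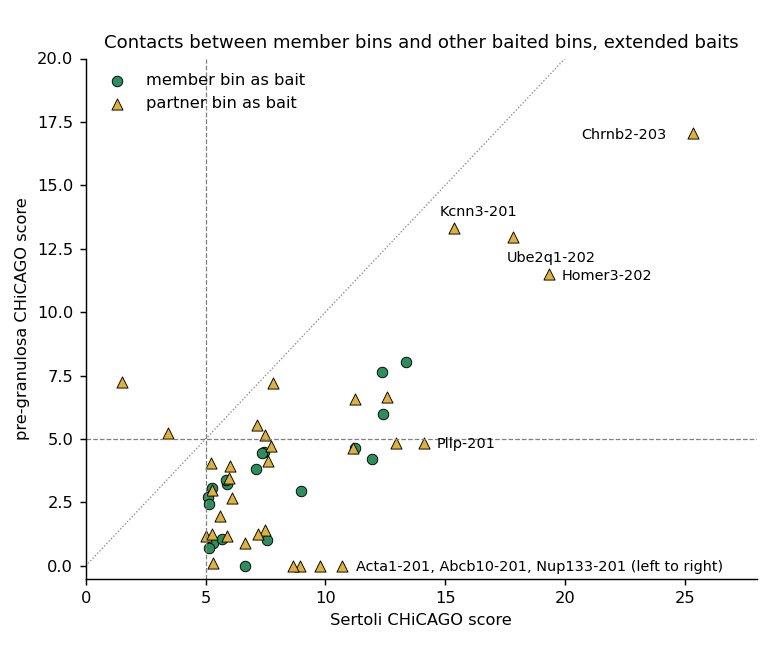
Sertoli score (x axis) against pre-granulosa score (y axis) of contacts between bins of the 5 genes and baited bins of other genes in the extended table, with circles where the bin of the 5 genes was the bait and triangles where the partner was, dashed lines at a score of 5 and a dotted line of equality. Chrnb2-203 as bait has the highest pair of scores with Adar-201, 25.3 and 17.0, and 3 partners of Urb2 lie at 0 in pre-granulosa cells.

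Promoters of the same gene also met. Adar-201 as bait met Adar-202 with 8.95 in Sertoli and 5.84 in pre-granulosa cells, and the reverse was 10.1 and 14.5. Sugp2-202 met the bin of Sugp2-214 and Sugp2-212, which holds the annotated start, with 7.06 and 5.65, and the reverse was 8.48 and 9.49. In both pairs the contact was called in each cell type from either side, and which cell type scored higher changed with the end used as bait. Rere-202, whose bin holds the annotated start of Rere, met Rere-201 at 206.5 kb with 6.21 and 0, and the reverse was not listed. Rere-201 met the bin of Rere-208 and Rere-205 with 5.06 and 5.08, and the reverse was 4.30 and 5.37, called in pre-granulosa cells alone. At Nlrc5, the bin of Nlrc5-207 met Nlrc5-204 with 6.98 and 5.97, called in both cell types. It met Nlrc5-201 with 1.49 and 6.46, called in pre-granulosa cells alone. Neither of these Nlrc5 pairs was listed in the reverse.

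The other baits of these genes had smaller excesses, since the bait with the largest excess was taken for each gene. In the original table Sugp2-212 had 1 Sertoli and 0 pre-granulosa calls, Adar-202 had 4 and 0, Rere-202 had 3 and 2, and Rere-208 had 1 and 0. Nlrc5-204 had 9 and 4 and Nlrc5-201 had 5 and 2. All of these baits had more Sertoli calls, as did 63.8% of all original baits, and 23.6% of all had more pre-granulosa calls. The median excess over all original baits was 1. With the extended baits 5 of 7 such bins had more Sertoli calls, as did 52.4% of all baits: that of Sugp2-214 and Sugp2-212 with 6 and 1, Rere-202 with 3 and 0, Nlrc5-201 with 4 and 1, Nlrc5-204 with 6 and 4, and that of Rere-208 and Rere-205 with 2 and 1. Adar-202 and the bin of Nlrc5-207 had equal numbers, 1 and 1 and 2 and 2, as did 19.8% of all baits. Of 12 bins met by several baits of 1 gene in the original table, 9 scored higher in Sertoli cells with every such bait, and 3 went in opposite directions. The bin past the lower end of Rere scored 1.93 in Sertoli and 5.09 in pre-granulosa cells with Rere-202, and 11.6 and 1.90 with Rere-201. Of all rows with original baits, 71.6% scored higher in Sertoli cells. That share counts single rows and not bins met by several baits. Most of the 12 bins also include a row of a bait chosen by its Sertoli calls, so nothing is read from their count.

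Over Slc12a3 the 3 Nlrc5 baits did not score alike. In bin 3, in genome order over the gene (chr8:94342087-94347396), Nlrc5-204 had 6.60 in Sertoli and 15.8 in pre-granulosa cells, whereas Nlrc5-201, whose fragment lies close by, had 6.76 and 0.11. In bin 4, which touches it, Nlrc5-204 had 12.1 and 0.85 and Nlrc5-202 had 9.25 and 0. In bin 5 all 3 baits were called in Sertoli cells alone, with 6.54 and 3.67 for Nlrc5-204, 5.13 and 1.61 for Nlrc5-201, and 8.57 and 0.32 for Nlrc5-202. The contact of Nlrc5-204 in bin 3 had the highest pre-granulosa score of any bait of the 5 genes in that table, and with the extended bait it had 5.26 and 15.1. The bin of the Slc12a3 promoter met Nlrc5-201 with 13.4 and 8.04, called in both cell types. As a bait it met Nlrc5-202 with 3.43 and 5.26, called in pre-granulosa cells alone.

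**Figure D5:**
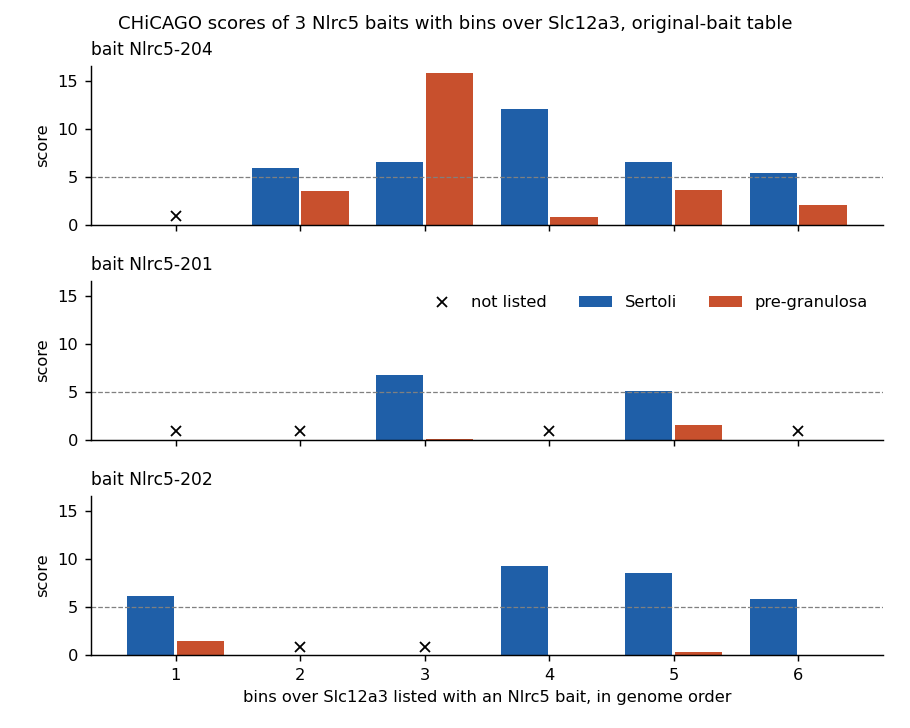
Sertoli and pre-granulosa scores of 3 Nlrc5 baits with the 6 bins over Slc12a3 that any of them listed, in genome order, with a dashed line at the calling score of 5 and crosses for bins not listed with that bait. The tallest bar is pre-granulosa, 15.8 for Nlrc5-204 in bin 3, next to a Sertoli bar of 12.1 against 0.85 in bin 4.

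Baits near the 5 also had more Sertoli calls as a rule. Within 200 kb lay 29 other baits of the original table, 5 of them of the same genes, and 24 (82.8%) had more Sertoli calls, 1 had more pre-granulosa calls and 4 had equal numbers, where 63.8% of all baits had more Sertoli calls. They had 93 Sertoli and 34 pre-granulosa calls, a ratio of 2.74 against 1.89 over all baits. Sugp2 had 14 such neighbours with 29 and 6 calls, among them Comp-203 with 8 and 1. Slc45a1-201 near Rere had 13 and 6 calls, and Fam192a-214 near Nlrc5 had 9 and 3. The neighbour with more pre-granulosa calls was Arl2bp-201, with 0 and 1. With the extended baits 31 of 40 neighbours (77.5%) had more Sertoli calls, against 52.4% of all baits, 5 had more pre-granulosa calls and 4 had equal numbers, with 166 and 84 calls in all. Of these 5, 4 were near Sugp2, among them Tmem161a-201 with 1 Sertoli and 4 pre-granulosa calls. Neighbours share bins with the 5 baits and are not separate evidence.

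High counts of Sertoli calls came with high counts of listed contacts. Of the 92 original baits with 20 or more listed contacts, 89 had more Sertoli calls and 3 more pre-granulosa calls, with a median excess of 11. Sugp2-202 was at place 2 by listed contacts, Rere-201 at 5, Adar-201 at 7, Urb2-201 at 11 and Nlrc5-202 at 61. The size of the excess also followed the calling score. At a score of at least 7 it was 13 at Sugp2 and Urb2, 11 at Adar, 10 at Rere and 12 at Nlrc5, and at 10 it was 8, 4, 8, 6 and 4. When the Sertoli threshold was raised until both cell types had equal numbers of calls over the whole table, the excess was 16 at Sugp2 and Nlrc5, 14 at Urb2, 13 at Rere and 10 at Adar.

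Genes related to the 5 by family or pathway were counted in the same way. Of 74 such genes in 5 lists, 16 had a listed original bait, 23 baits in all. Of these baits 16 had more Sertoli calls, as did 63.8% of all baits, 5 had more pre-granulosa calls and 2 had equal numbers. Their median excess was 1. Over all baits the median excess was also 1. Among SURP and G-patch genes, 4 of 5 baits had more Sertoli calls, led by Rbm5-205, of a splicing regulator gene, with 14 and 9. Of 3 baits of large ribosomal subunit assembly genes 2 did, and of 2 baits of RNA deaminase and double-stranded RNA sensor genes 1 did, Zbp1-201 with 7 and 1. The list of atrophin partners and retinoic acid receptors had 1 listed bait, Wdr5-203, with 2 and 0. Of 12 baits of NOD-like receptor and MHC class I pathway genes, 8 had more Sertoli calls and 2, at B2m and Nlrp10, had more pre-granulosa calls. With the extended baits 20 of 38 baits in these lists had more Sertoli calls, as did 52.4% of all baits, 8 had more pre-granulosa calls and 10 had equal numbers.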

How the data were processed

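Capture Hi-C contacts of Sertoli cells (3 libraries) and pre-granulosa cells (2 libraries) were read from 2 deposited tables. The authors deposited 1 CHiCAGO score per contact and cell type, per the file headers and the labels' sample descriptions. A score is not a count, so depth is unknown. Genome build mm10 is per the submitters' processing notes. The aligner, the CHiCAGO version, read filters and how libraries were combined are not given in the sources used here. Rows whose bait or other end carries 1 of the 5 symbols were kept, cis rows only. Calls at a score of at least 5, distances between midpoints, runs of touching bins, and overlaps with RefSeq genes were computed in Python 3.11.15 with pandas 2.3.3, numpy 2.4.6 and scipy 1.17.1, and figures were drawn with matplotlib 3.10.9. Overlaps of contacted bins count protein-coding RefSeq genes only, without LOC symbols. No test was possible. The genes and lists were chosen with earlier results of these data known. Named contacts are, per bait, the strongest of each cell type, the farthest, the longest run and the strongest called in pre-granulosa cells alone. Named genes are the next 5 baits by excess, baited partners, baits within 200 kb and the related genes of the 5 lists. Further contacts were named after their values were seen. The counting of runs and calls was tested on simulated data. Alternatives were other thresholds (7 and 10), contacts of at least 50 kb, equal numbers of calls, extended baits (all bins of a gene or, added after seeing the data, the same-named bin alone), all baits of a gene, runs counted once, and a limit of 3 on the other score. Promoter sequences are from RefSeq (GRCm38.p6).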

Additional observations from a re-analysis of the deposited data

How the results depend on the processing

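The excess of Sertoli calls kept its direction at all 5 genes under every alternative tried. At a score of at least 7 the excess was 13 at Sugp2, 13 at Urb2, 11 at Adar, 10 at Rere and 12 at Nlrc5, against 29, 23, 22, 21 and 20 at a score of at least 5. At 10 it was 8, 4, 8, 6 and 4. With equal numbers of calls, for which the Sertoli threshold rose to 6.37, it was 16 at Sugp2, 14 at Urb2, 10 at Adar and 13 at Rere. With runs counted as 1 contact it was 17, 12, 10 and 11 at these genes. With contacts of at least 50 kb only it was 12 at Nlrc5. Higher thresholds leave fewer calls by construction. Allowing 1 missing bin, 86.4% of the Sertoli calls touched another one, against 59.3%, and at a score of at least 10 their median distance was 26.0 kb, against 91.8 kb. The causes of these 2 were not tested. With the extended baits and every bin of a gene counted, the excess was 22, 16, 15, 18 and 19. This changes both the table and the bins counted, so the bin of the same name alone was added after seeing the data. The excess was then 17 at Sugp2, beyond the margin of 1.5 times, and 16, 15, 14 and 14 at the others. In 33 comparisons the value did not move beyond the margin set for it, and in 22 it did. Beyond the margin were the excess at all 5 genes at scores of at least 7 and 10, and at Nlrc5 from 50 kb. So was the excess at Sugp2, Urb2, Adar and Rere with equal numbers of calls and with runs counted once. The touching share with 1 missing bin allowed and the median distance at a score of at least 10 also moved.

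Each table has 1 column per cell type, so leaving out a library was not possible. No paired analysis was possible because the columns carry no replicate number. The unknown depth limits what a score under 5 shows: such a contact was not called, which does not show that it is absent.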
